A study of Rattus norvegicus with 24 samples.

Results

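The study tied 9 rat miRNAs to a predicted network around the mRNAs of NSMF and MGLL, and their reads were followed here through both brain nuclei and all treatments. They were rno-miR-3099, rno-miR-1224 and rno-miR-328a-3p, linked to NSMF, rno-miR-3548 and rno-miR-92b-3p, linked to MGLL, and rno-miR-331-3p, rno-miR-326-3p, rno-miR-204-3p and rno-miR-3084a-3p, labelled in the network drawings. The study's text also ties miR-667-5p to NSMF, which is not among the 9 and is given with the predicted miRNAs. These 9, of 1098 miRNAs in the count table (703 known and 395 predicted without a reference name), were chosen by the study from changes in the PVN after HT and after HT + EA. The PVN values of those contrasts are therefore given as a description without a test, and tests are given for the CEA and for the difference between the nuclei. The PVN contrasts with HT + SEA share libraries with them and are also given without a test.

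Small RNA was sequenced from 24 libraries, 3 for each of 4 treatments in the PVN of the hypothalamus and in the CEA, the central nucleus of the amygdala. NC rats had no operation, HT rats had part of the left liver lobe removed under isoflurane, HT + EA rats also received electroacupuncture through needles at ST36 and SP6 of 1 side before and after the operation, and HT + SEA rats had the needles without current. All rats, NC and HT included, were habituated to restraint and restrained for the sessions, and tissue was taken a day after the last session. They were young male Sprague-Dawley rats, and what HT is compared with lacked the incision and anesthesia as well as the hepatectomy. The study states that the brain samples did not come from the same animal but from 1 batch, and how many rats gave each library was not stated. As many rats were divided among the treatments as there are libraries of 1 nucleus, so PVN and CEA libraries may share animals, and p-values measure the spread between these libraries.

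The PVN libraries held 6584345 to 14828269 reads on miRNAs and the CEA libraries 9463321 to 14913564. Levels are given in CPM, the reads on a miRNA scaled to the total of its library (counts per 1e+06). A count of 3, taken as the floor of detection, equals 0.201 to 0.456 CPM, which covers counting error only. The PVN NC and HT libraries (medians of 7364616 and 9276805 reads) were shallower than those of HT + EA and HT + SEA (13460699 and 13447863). The 4 brain-enriched miRNAs of a marker list held 102996.5 to 116874.6 CPM in the PVN and 137892.1 to 162608.6 in the CEA, mostly from miR-9a-5p. They mark brain tissue and do not show which nucleus was taken. The first CEA HT library stood apart: its TMM factor, edgeR's scaling for library composition, was 0.822 against 0.975 to 1.064 elsewhere. Over the 7 more abundant of the 9 miRNAs, its median log2 difference from the other libraries of its group was -0.515, beside -0.226 to 0.382 in the other 23 libraries.

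A miRNA guides a silencing complex to mRNAs that pair mainly with its seed, the bases near its 5′ end, and so lowers their translation or stability. NSMF carries signals from NMDA receptors at synapses to the neuronal nucleus, and MGLL is the lipase that degrades the endocannabinoid 2-arachidonoylglycerol. The PVN holds the CRH neurons that head the hypothalamic-pituitary-adrenal axis, and the CEA is an output nucleus of the amygdala for fear and stress.

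The sequences are shown because target prediction and the separation of these miRNAs from their relatives both rest on them. RefSeq (build GRCr8) held the mature sequence of 8 of the 9 miRNAs, and miR-328a-3p is named only. Each is written 5′ to 3′ with the seed, bases 2 to 8, in capitals. The first 5 share their seed with none of 693 mature rat miRNAs, and miR-326-3p and miR-92b-3p are set beside relatives whose reads are compared with theirs. The relative of miR-3084a-3p, miR-3084d, has the same letters throughout.
rno-miR-3099: uAGGCUAGaaagagguugggga
rno-miR-1224: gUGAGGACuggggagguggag
rno-miR-3548: cAGCACUGuccgguaagaugcc
rno-miR-331-3p: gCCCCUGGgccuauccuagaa
rno-miR-204-3p: gCUGGGAAggcaaagggacguu
rno-miR-326-3p: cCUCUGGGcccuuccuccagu
rno-miR-330-5p, with the seed of miR-326-3p: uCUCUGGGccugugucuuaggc
rno-miR-92b-3p: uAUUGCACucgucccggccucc
rno-miR-25-3p, with the seed of miR-92b-3p: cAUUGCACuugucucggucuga
rno-miR-92a-3p, with the seed of miR-92b-3p: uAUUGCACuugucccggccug
rno-miR-3084a-3p: uUCUGCCAguccccuucagaca

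The 8 sequenced miRNAs carried 8 different seeds, among them miR-3099 and miR-1224, linked to NSMF, and miR-3548 and miR-92b-3p, linked to MGLL. The seed of miR-328a-3p was not compared. miR-3099 lies at chr1:76057109-76057130 and miR-92b-3p at chr2:176931663-176931684, both on the minus strand and in no other annotated gene. miR-1224 (chr11:93811355-93811375, minus strand) lies within the span of Vwa5b2, and miR-331-3p (chr7:30414401-30414421, minus strand) within that of Vezt. miR-326-3p (chr1:163266224-163266244, plus strand) lies within Arrb1, which encodes a beta-arrestin, and miR-204-3p (chr1:229743532-229743553, plus strand) within Trpm3, an ion channel gene known as its host. The letters of miR-3084a-3p occur at chr6:93551127-93551148 and chr19:55718541-55718562, and again in miR-3084d at chr7:60665934-60665955, so reads from these places cannot be told apart. The first lies within the spans of Klhdc2 and Nemf, the next within Sf3b3 and the last within Usp15 and Snora19.

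miR-3548 lies at chr5:171930771-171930792 on the plus strand, over the place of miR-200a-5p at chr5:171930770-171930790 on the minus strand, both within the span of Ttll10. The pair is shown because the reads of miR-3548 cannot be told from those of its partner without their strand, which the sources used here do not give for the small RNA counting. miR-200a-5p belongs to the miR-200 family, best known from epithelial cells.
rno-miR-3548: cAGCACUGuccgguaagaugcc
rno-miR-200a-5p: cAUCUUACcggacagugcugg
reverse complement of rno-miR-200a-5p: ccagcacuguccgguaagaug
The reverse complement of miR-200a-5p and miR-3548 have 20 bases in common without a break.

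The counts followed the sequence. The reads on miR-3548 equalled those on miR-200a-5p in 13 of 24 libraries, were lower in the other 11 and were higher in 0, with a largest difference of 7 reads. Over all libraries 341 reads were counted on miR-3548 and 382 on miR-200a-5p, or 89.3% as many. In the PVN the miR-3548 counts were 15, 50 and 19 in NC, 11, 12 and 11 in HT, 20, 43 and 23 in HT + EA, and 15, 23 and 20 in HT + SEA. The miR-200a-5p counts in the same libraries were 17, 57 and 19, then 11, 12 and 11, then 24, 49 and 24, and 16, 29 and 25. The second NC and second HT + EA libraries were the highest for both. Across the 12 PVN libraries, Pearson's r of log2 CPM between miR-3548 and miR-200a-5p was 0.986, and it was 0.721 with miR-200a-3p, 0.747 with miR-200b-3p and 0.743 with miR-429, and 0.444 with miR-200c-3p of the same family. Across the 12 CEA libraries r was 0.98 with miR-200a-5p, 0.674 with miR-200a-3p, 0.652 with miR-429, 0.419 with miR-200b-3p and 0.035 with miR-200c-3p. These are descriptions, since the points share their libraries and perhaps their reads. miR-200a-3p, which is on the marker list of choroid plexus and ependyma, had 41, 443 and 67 reads in PVN NC, 65, 40 and 63 in HT, 145, 465 and 79 in HT + EA, and 139, 255 and 194 in HT + SEA. It was highest in the same libraries as miR-3548, and the part of such cells in the values was not tested. Values of miR-3548 below are those of the count table, and to which strand they belong was not tested.

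**Figure D1:**
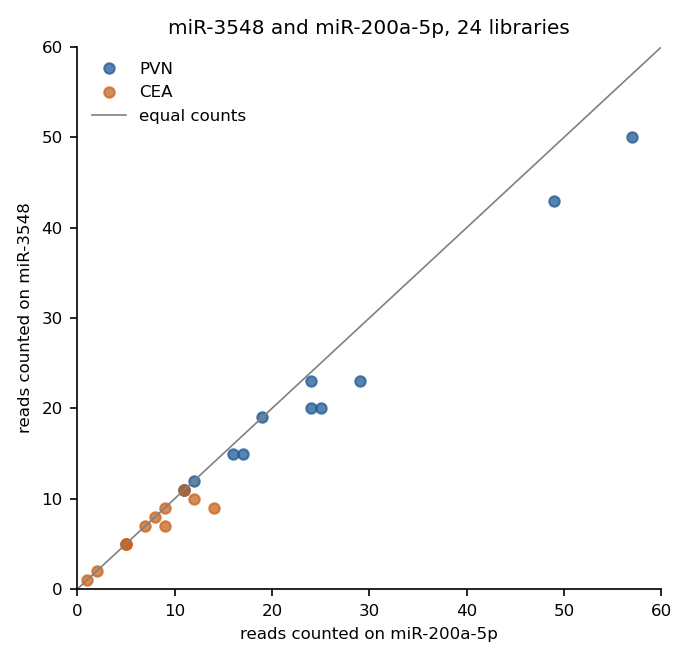
Reads counted on miR-3548 (vertical axis) against reads counted on miR-200a-5p (horizontal axis), 1 point per library, blue for the PVN and orange for the CEA. No point lies above the grey line of equal counts, and 13 of 24 lie on it.

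The 9 miRNAs differed widely in abundance. miR-328a-3p, which is known for targeting the Bace1 mRNA, ranged from 1756.6 to 2599.3 CPM in PVN libraries and from 986.2 to 1958.0 in CEA libraries, and held 72.7% of all reads on the 9. miR-92b-3p followed with 343.7 to 547.0 CPM in the PVN. miR-326-3p, miR-1224, miR-3099 and miR-331-3p had PVN means of 152.4, 147.2, 107.9 and 49.9 CPM, and miR-204-3p one of 12.6. miR-3548 and miR-3084a-3p were near the floor, with PVN medians of 1.52 and 1.44 CPM and counts from 11 to 50 and from 7 to 36. Together the 9 took 0.267% of all reads.

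**Figure D2:**
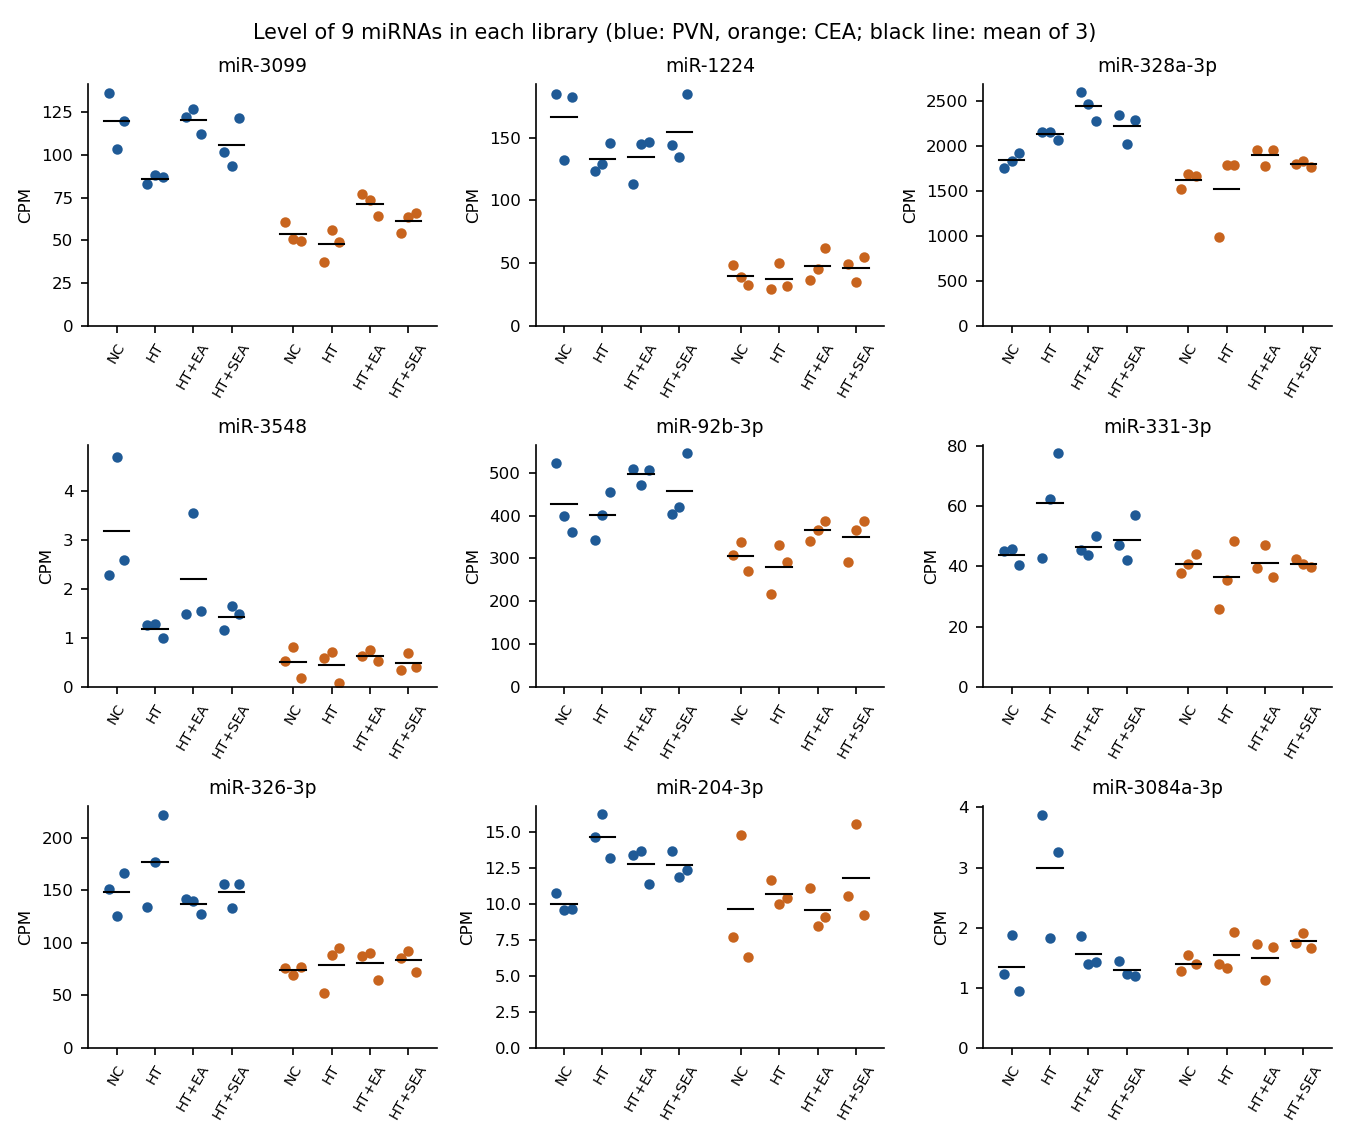
Level of each miRNA in CPM (vertical axes start at 0) in the 24 libraries, 3 points per group in the order of their replicate numbers and a black line at their mean, blue for the PVN and orange for the CEA. The blue points of miR-3099, miR-1224, miR-3548 and miR-326-3p lie above all orange ones, and the first CEA HT point is low for miR-328a-3p (986.2 CPM).

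The nuclei were compared next, a contrast that the choice of the miRNAs had not used. The NC, HT and HT + EA libraries of the PVN that served for the choice do enter it, and choosing on PVN reads can favour miRNAs well counted in the PVN, so the count of members is a description and the HT + SEA libraries are also compared alone. In a fit of the 24 libraries that allowed for treatment, 7 of the 9 were higher in the PVN and 0 lower (edgeR's quasi-likelihood test, called at a Benjamini-Hochberg adjusted p below 0.05 over 1098 miRNAs), while 39.9% of all miRNAs passed, 20.1% as higher in the PVN. The median log2 fold change of the 9 was 0.41, against 0.03 over all miRNAs. Levels of RNA in bulk tissue do not tell more cells of a type from more RNA per cell.

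miR-1224, a miRNA cut from a short intron, had the firmest difference. Its PVN libraries ranged from 113.2 to 184.8 CPM with a median of 144.4, and its CEA libraries from 29.7 to 62.3 with a median of 41.8. The ranges did not overlap in any of the 4 treatments, and the log2 fold change was 1.74 (SE 0.11, adjusted p = 9.82e-16). The ratio of the group means, on the log2 scale, was 2.06 in NC, 1.84 in HT, 1.49 in HT + EA and 1.73 in HT + SEA.

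miR-3099 was also higher in every PVN library than in any CEA library. PVN libraries held 83.1 to 136.2 CPM of it (median 107.6) and CEA libraries 37.6 to 77.0 (median 58.4), a log2 fold change of 0.84 (SE 0.08, adjusted p = 1.95e-11). The lowest PVN group, HT, and the highest CEA group, HT + EA, still stood apart, with 83.1 to 88.0 against 64.0 to 77.0 CPM.

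miR-326-3p ranged from 125.8 to 221.1 CPM (median 146.7) in the PVN and from 51.9 to 95.0 (median 81.5) in the CEA, without overlap. Its log2 fold change was 0.90 (SE 0.08, adjusted p = 2.64e-11). miR-330-5p, which has the same seed and is far more abundant, differed by almost the same amount, with a log2 fold change of 0.91 (SE 0.08, adjusted p = 3.61e-12) from 3157.3 CPM in the CEA to 6158.9 in the PVN. miR-326-3p made up a median of 2.33% of the reads on this seed in the PVN and 2.43% in the CEA.

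miR-3548 was counted 1 to 11 times per library in the CEA, below the floor of 3 in 2 libraries, against 11 to 50 times in the PVN. Its log2 fold change was 1.83 (SE 0.26, adjusted p = 3.44e-07), and that of miR-200a-5p on the opposite strand was 1.84 (SE 0.27, adjusted p = 6.14e-07). With counts this low the ratio is imprecise.

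miR-92b-3p and its seed relatives went in different directions. miR-92b-3p was higher in the PVN, at 343.7 to 547.0 CPM (median 437.1) against 217.1 to 388.3 (median 333.8) in the CEA, with some overlap and a log2 fold change of 0.41 (SE 0.07, adjusted p = 9.66e-06). miR-25-3p was lower in the PVN by a log2 fold change of -0.64 (SE 0.07, adjusted p = 1.22e-09), miR-92a-3p by -0.63 (SE 0.08, adjusted p = 1.87e-08) and miR-32-5p by -0.47 (SE 0.11, adjusted p = 8.13e-04). The rare miR-363-3p, at 3.56 CPM in the PVN and 2.23 in the CEA, was higher by 0.60 (SE 0.15, adjusted p = 0.00116). miR-92b-3p therefore made up 35.5 to 47.5% of all reads with this seed in the PVN and 22.9 to 32.2% in the CEA. The summed level of the 5 miRNAs overlapped, with 949.7 to 1176.7 CPM in PVN libraries and 948.8 to 1584.9 in CEA libraries.

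**Figure D3:**
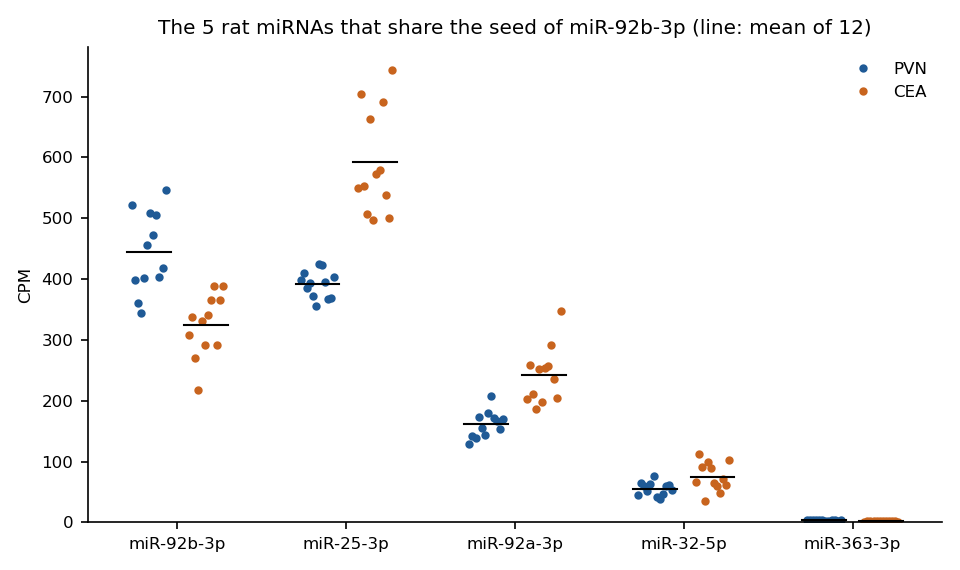
Level in CPM (vertical axis, from 0) of miR-92b-3p and the 4 rat miRNAs with its seed, 12 points per nucleus and a black line at their mean, blue for the PVN and orange for the CEA. miR-92b-3p has the higher mean in the PVN (445.1 against 324.7 CPM), and miR-25-3p, miR-92a-3p and miR-32-5p have it in the CEA.

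The other arm of the same hairpin did not follow miR-92b-3p. miR-92b-5p, with 904 reads over the 12 PVN libraries and 1048 over the 12 CEA libraries, had a log2 fold change of -0.06 (SE 0.11, adjusted p = 0.696). The 3p arm took 98.12 to 98.85% of the reads of the hairpin in the PVN and 97.35 to 98.34% in the CEA. The difference between the arms was not tested.

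Smaller differences were seen for miR-328a-3p and miR-331-3p. miR-328a-3p was higher in the PVN with a log2 fold change of 0.29 (SE 0.06, adjusted p = 1.60e-04), from a mean of 1708.6 to 2156.5 CPM, and its ranges stood apart within each of the 4 treatments. miR-331-3p had a log2 fold change of 0.27 (SE 0.09, adjusted p = 0.0163), its ranges overlapped within every treatment, and its call was lost when any 1 of 9 libraries was left out. These were PVN NC 1, PVN HT 2 and 3, PVN HT + EA 1 and 2, PVN HT + SEA 1, CEA HT 1 and 2 and CEA HT + EA 3, numbered as replicates, with adjusted p from 0.0621 to 0.161 by edgeR.

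miR-204-3p and miR-3084a-3p did not pass the test. miR-204-3p was at 9.56 to 16.3 CPM in the PVN and 6.34 to 15.6 in the CEA, a log2 fold change of 0.21 (SE 0.12, adjusted p = 0.192). Without the second CEA NC library the adjusted p was 0.0229 and the log2 fold change 0.31. Its partner miR-204-5p, the major arm and a miRNA abundant in choroid plexus, had a log2 fold change of 0.31 (SE 0.11, adjusted p = 0.0206). miR-3084a-3p had one of 0.09 (SE 0.18, adjusted p = 0.742), and it held 42.50% ± 9.05 (SD, n = 12) of its summed reads with miR-3084a-5p in the PVN and 47.25% ± 6.50 in the CEA. This share leaves out a further 5p arm, miR-3084a-1-5p, which had 34, 46 and 64 reads in PVN HT beside 23, 18 and 30 of miR-3084a-5p, so the 3p share of all these hairpins is lower. The arms of the other hairpins were lopsided: miR-328a-5p and miR-326-5p had 14 and 8 reads in all 12 PVN libraries, and miR-331-5p had 52.

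**Figure D4:**
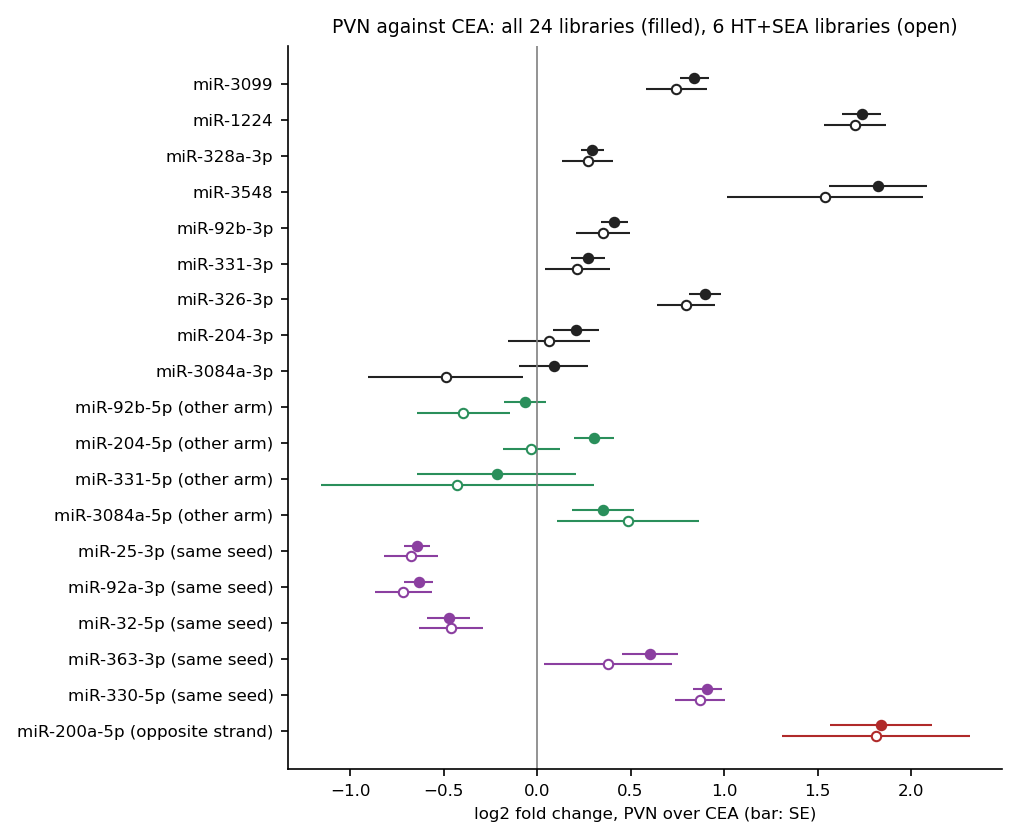
log2 fold change of PVN over CEA (horizontal axis, bars are the SE) for the 9 miRNAs in black, other arms in green, miRNAs of the same seed in purple and miR-200a-5p in red, with all 24 libraries as filled and the 6 HT + SEA libraries as open points. Of the 9 open black points only that of miR-3084a-3p lies to the left of 0.

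The HT + SEA libraries were not used to choose the miRNAs, and the nuclei were compared in them alone. Of the 1015 miRNAs tested, 23.9% passed at an adjusted p under 0.05, 118 as higher in the PVN and 125 as lower. Among the 9, 4 passed, all higher in the PVN. They were miR-1224 with a log2 fold change of 1.70 (SE 0.16, adjusted p = 4.52e-16), miR-326-3p with 0.80 (SE 0.15, adjusted p = 1.46e-05), miR-3099 with 0.75 (SE 0.16, adjusted p = 9.90e-05) and miR-3548 with 1.54 (SE 0.53, adjusted p = 0.0193). For miR-3548 the counts were 15, 23 and 20 in the PVN and 5, 9 and 5 in the CEA, and the call was lost with DESeq2 (adjusted p = 0.0624) and without PVN replicate 2 or 3 or CEA replicate 1 (adjusted p up to 0.112). miR-92b-3p had a log2 fold change of 0.35 (SE 0.15) with an adjusted p of 0.0652, which became 0.0495 with the replicate number as a block and 0.0436 with library totals. It passed without CEA replicate 2 (adjusted p = 0.0438) or 3 (0.00194) and reached 0.450 without the third PVN library. miR-328a-3p, at 0.27 (SE 0.14), had an adjusted p of 0.153 (0.0493 with DESeq2), although its 3 PVN libraries, at 2019.1 to 2345.7 CPM, all lay above its CEA libraries, at 1763.7 to 1828.9.

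Markers of other cells moved with the nucleus. The 3 oligodendrocyte miRNAs summed to 1795.5 to 3235.6 CPM in the PVN and 3904.4 to 7916.2 in the CEA, with none of the 3 at 0 in any group. The 7 miRNAs of choroid plexus and ependyma summed to 2629.1 to 3271.0 CPM in the PVN and 2218.1 to 10710.0 in the CEA, mostly from miR-1298. But 4 of the 7, with miR-200a-3p and miR-200b-3p, were called higher in the PVN and 2 lower, with a median log2 fold change of 0.37. The 2 endothelial miRNAs summed to 17488.6 to 21910.9 CPM in the PVN and 23075.7 to 26668.8 in the CEA. The 3 oligodendrocyte, 2 endothelial and 4 brain-enriched miRNAs were each called lower in the PVN, and 2 of 3 red cell miRNAs were called higher. The liver miR-122-5p was called higher (log2 fold change 1.03), 1 of 3 myeloid miRNAs, miR-142-5p, was called lower, and 0 of 3 muscle miRNAs were called. Their part in the differences between the nuclei was not tested.

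In the PVN the 9 miRNAs were chosen for their changes, and the values are given to set the CEA and the sham libraries beside them. After HT, with CPM ranges apart from NC for 4 of the 9 (12.8% of all miRNAs), miR-3099 was at 83.1, 88.0 and 86.8 CPM against 136.2, 103.2 and 120.0 in NC. miR-328a-3p was at 2157.9, 2154.3 and 2066.3 CPM against 1756.6, 1832.3 and 1923.4 in NC. All 3 HT libraries were low for miR-3099 and high for miR-328a-3p. The log2 fold changes of HT against NC were -0.51 (SE 0.18) for miR-3099, 0.18 (SE 0.14) for miR-328a-3p, -0.36 (SE 0.18) for miR-1224, -1.48 (SE 0.42) for miR-3548 and -0.13 (SE 0.16) for miR-92b-3p.

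The 4 miRNAs labelled in the network were all higher in PVN HT than in NC on average. miR-204-3p was at 14.7, 16.3 and 13.2 CPM in HT and at 10.8, 9.56 and 9.64 in NC, a log2 fold change of 0.53 (SE 0.25). miR-331-3p was at 42.9, 62.2 and 77.5 CPM in HT and at 45.0, 45.6 and 40.3 in NC, so that its first HT library lay within the NC range. miR-326-3p showed the same spread, with 133.6, 176.4 and 221.1 CPM in HT against 151.3, 125.8 and 166.6 in NC. miR-3084a-3p was counted 34, 17 and 36 times in HT and 8, 20 and 7 times in NC, with a log2 fold change of 1.08 (SE 0.42) that was 1.42 without the second NC library. In these NC libraries the 3 myeloid marker miRNAs summed to 95.8 to 183.9 CPM against 72.1 to 88.3 in HT, and the 3 muscle ones to 44.0 to 109.2 against 20.5 to 30.6. Within these lists the means of miR-223-3p (64.2 CPM in NC and 1.32 in HT) and miR-206-3p (49.8 and 11.6) carried most of the difference, and those of miR-142-3p (40.4 and 37.2) and miR-142-5p (41.3 and 42.1) were close. Log2 fold changes of HT against NC were -1.76 for miR-200a-3p and -1.68 for miR-200b-3p, 0.52 for the brain-enriched miR-128-3p and 0.57 for the oligodendrocyte miR-338-3p. The 3 red cell miRNAs summed to 263.4 to 326.6 CPM in NC and 220.0 to 233.6 in HT, and the liver miRNA miR-122-5p was at 12.4 CPM (109 reads) in the first HT library beside 0.95 to 1.67 in the other NC and HT libraries. Their part in the PVN values was not tested.

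With HT + EA, CPM ranges stood apart from those of HT for 4 of the 9 (15.7% of all miRNAs). miR-3099 was at 122.2, 126.7 and 112.1 CPM, within the NC range, a log2 fold change of 0.52 (SE 0.13) against HT. miR-92b-3p was at 509.4, 472.3 and 505.9 CPM, all above HT at 343.7, 402.2 and 455.4, a log2 fold change of 0.35 (SE 0.12). miR-328a-3p was at 2599.3, 2460.7 and 2273.8 CPM, a log2 fold change of 0.23 (SE 0.11), and so stood farther from NC than HT did. miR-3548 had one of 0.91 (SE 0.40), carried by its second library with 43 reads beside 20 and 23. Without 1 library in turn it ranged from 0.379 to 1.126. miR-3084a-3p, miR-331-3p, miR-326-3p and miR-204-3p had -0.90, -0.34, -0.33 and -0.17, and miR-1224 had 0.06. Leaving out 1 library gave ranges of -0.509 to -0.184 for miR-331-3p and -0.463 to -0.191 for miR-326-3p. The ranges were -1.152 to -0.633 for miR-3084a-3p, -0.279 to -0.088 for miR-204-3p and -0.04 to 0.169 for miR-1224. Markers of other cells moved in this comparison too. The myeloid miR-223-3p was at 8.98 to 11.9 CPM in HT + EA against 1.02 to 1.54 in HT, while the 3 myeloid miRNAs summed to 82.7 to 91.6 against 72.1 to 88.3. Members of 1 list moved in different directions: log2 fold changes were -0.98, 0.17 and 0.42 for the red cell miR-144-3p, miR-451-5p and miR-486, and -0.94, 0.29 and -0.43 for the oligodendrocyte miR-219a-5p, miR-219a-2-3p and miR-338-3p. miR-200a-3p and miR-200b-3p had 1.66 (SE 0.41) and 1.56 (SE 0.37). Their part in the PVN values was not tested.

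The PVN libraries after sham needling are given beside these groups as values only, since the choice of the 9 used HT and HT + EA. miR-3099 was at 101.8, 93.3 and 121.3 CPM, all above HT, with a log2 fold change of 0.31 (SE 0.14) against HT and of 0.18 (SE 0.11) for HT + EA against HT + SEA. miR-328a-3p was at 2345.7, 2019.1 and 2288.5 CPM, which overlapped both HT and HT + EA. miR-3084a-3p was at 1.45, 1.22 and 1.19 CPM, all below the lowest HT library at 1.83. For HT + EA against HT + SEA the log2 fold changes ran from -0.20 for miR-1224 to 0.58 for miR-3548. The comparisons with HT share the HT libraries. Markers of other cells moved here too: miR-200a-3p was at 10.6 to 18.3 CPM in HT + SEA and 4.31 to 7.4 in HT. miR-200b-3p was at 8.81 to 12.6 CPM against 3.26 to 5.8. The brain-enriched miR-128-3p was lower, at 7961.0 to 11576.9 CPM against 11730.8 to 13778.7. Sums over the lists they belong to overlapped between HT + SEA and HT. The part of these markers in the values was not tested.

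In the CEA, which was not used to choose the miRNAs, 0 of the 9 differed between HT and NC at an unadjusted p under 0.05, the threshold used by the study (edgeR's quasi-likelihood test), while 3.82% of 996 miRNAs did. None was at an adjusted p under 0.05, and DESeq2 called 0 of the 9 as well. The log2 fold changes ran from -0.14 for miR-3548 to 0.24 for miR-204-3p, with SEs from 0.18 to 0.74. miR-3099 was at 37.6, 56.0 and 49.1 CPM in HT and at 60.8, 50.8 and 49.5 in NC, overlapping groups with a log2 fold change of -0.12 (SE 0.23, unadjusted p = 0.604, adjusted p = 1 by edgeR). miR-328a-3p was at 986.2, 1783.3 and 1782.9 CPM in HT and at 1519.4, 1684.2 and 1668.9 in NC. Its log2 fold change of -0.05 (SE 0.18) became 0.11 without the first HT library, so no direction can be given.

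miR-204-3p in the CEA was at 11.7, 10 and 10.4 CPM in HT and at 7.71, 14.8 and 6.34 in NC. The second NC library alone was high, and without it the log2 fold change went from 0.24 to 0.71 (unadjusted p = 0.0357 by edgeR). That library also had the highest miR-204-5p of its group, 743.7 CPM beside 405.4 and 373.7, and the highest sum of choroid plexus and ependyma miRNAs, 7452.1 CPM. The second CEA HT + SEA library was likewise the highest of its group for miR-204-3p (15.6 CPM) and for that sum (10710.0 CPM). Most of both sums was miR-1298, at 7386.4 CPM in the NC and 10628.9 in the HT + SEA library. The part of choroid plexus tissue in these values was not tested.

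With HT + EA against HT in the CEA, 1 of the 9 passed the unadjusted threshold and 5.28% of 1004 miRNAs did. This was miR-3099, at 77.0, 73.4 and 64.0 CPM in HT + EA against 37.6, 56.0 and 49.1 in HT. All 3 HT + EA libraries were higher than every HT library and every NC library of the CEA. The log2 fold change was 0.46 (SE 0.20, unadjusted p = 0.0271), and the adjusted p over all miRNAs was 0.897, so it did not pass the correction (edgeR). The call was lost, at a log2 fold change of 0.38 to 0.46, without the first HT + EA library (unadjusted p = 0.149 by edgeR), the second HT + EA library (unadjusted p = 0.0562) or the third HT library (unadjusted p = 0.0624), as well as under a block on replicate number (unadjusted p = 0.0526). Without the first HT library, which stood apart, it was kept (log2 fold change 0.39, unadjusted p = 0.0323 by edgeR). The value in the PVN was 0.52, and whether the nuclei differ in it was not tested. The choroid plexus and ependyma markers moved in the same comparison, with 3 of 7 higher at the unadjusted threshold. The sums of the 7 overlapped, at 2947.5 to 5729.2 CPM in HT + EA against 2218.1 to 3330.6 in HT. Most of each sum was miR-1298, at 5678.6, 3743.7 and 2918.3 CPM against 3241.8, 3301.5 and 2194.6. It was not 1 of the 3 (unadjusted p = 0.0891 by edgeR). The myeloid miR-223-3p, with 18, 167 and 157 reads in HT + EA against 11, 9 and 12 in HT, had a log2 fold change of 3.0 (SE 0.49, adjusted p = 3.66e-04 by edgeR), while miR-142-3p and miR-142-5p had -0.11 and 0.12 and the 3 myeloid sums overlapped, at 88.4 to 95.2 CPM against 53.8 to 98.6. In the oligodendrocyte, red cell and brain-enriched lists 1 member each was lower at the unadjusted threshold, miR-219a-5p (-0.71 on the log2 scale), miR-144-3p (-0.88) and miR-128-3p (-0.40). Of their other members, miR-219a-2-3p had 0.20, miR-338-3p -0.14, miR-451-5p 0.08, miR-486 0.01, miR-124-3p 0.06, miR-9a-5p -0.15 and miR-138-5p -0.30. The part of these markers in the value of miR-3099 was not tested.

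miR-92b-3p was at 341.3, 365.6 and 388.2 CPM in CEA HT + EA and at 217.1, 330.6 and 291.1 in HT, ranges that did not overlap. Ranges apart were found for 2 of the 9, miR-92b-3p and miR-3099, and for 9.36% of all miRNAs. Its log2 fold change of 0.25 (SE 0.17, unadjusted p = 0.138) did not pass edgeR's test, and without the first HT library it was 0.18. miR-328a-3p was at 1954.6, 1775.0 and 1958.0 CPM in HT + EA, with a log2 fold change of 0.20 (SE 0.17, unadjusted p = 0.229 by edgeR), and only 0.04 without that library. miR-1224 had 0.24 (SE 0.22), and miR-331-3p, miR-326-3p, miR-204-3p and miR-3084a-3p had 0.04, -0.08, -0.32 and -0.19, none of which passed. Without 1 library in turn these values ranged from 0.015 to 0.414 for miR-1224, -0.088 to 0.238 for miR-331-3p, -0.237 to 0.067 for miR-326-3p, -0.462 to -0.144 for miR-204-3p and -0.354 to -0.025 for miR-3084a-3p. The sign of miR-331-3p changed without the first or second HT library or the second HT + EA library.

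**Figure D5:**
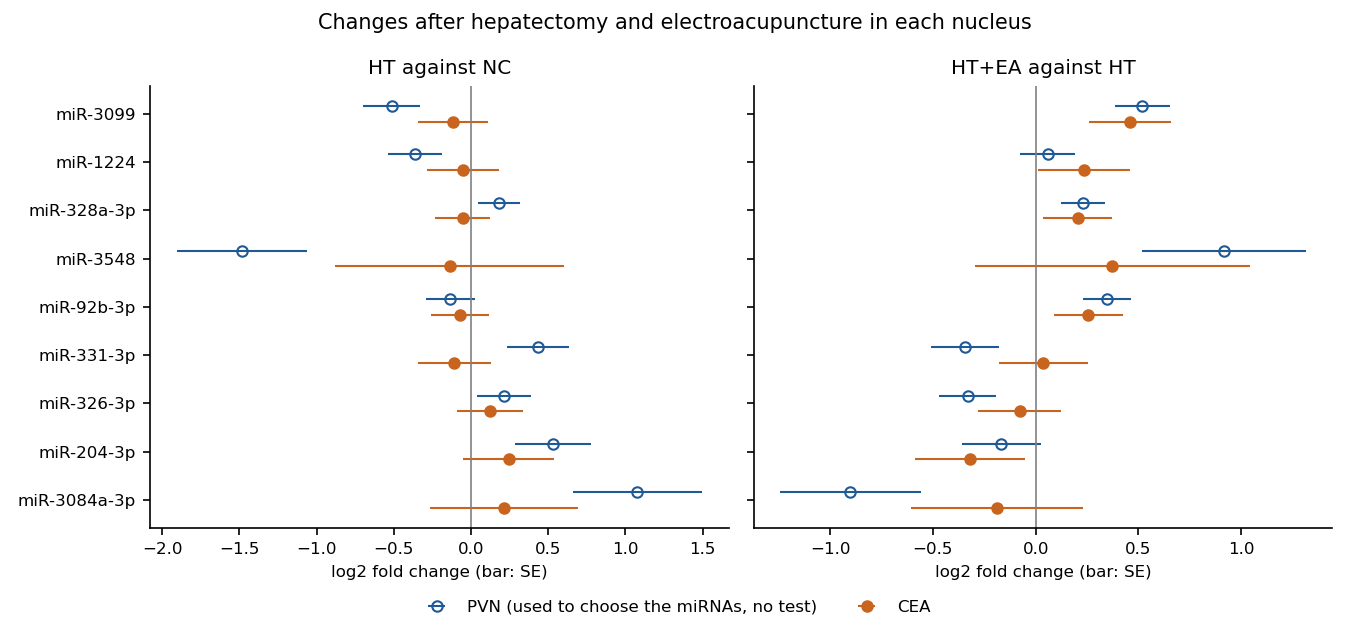
log2 fold change (horizontal axes, bars are the SE) of HT against NC (left) and HT + EA against HT (right) for the 9 miRNAs, open blue points for the PVN, whose contrasts were used to choose them, and filled orange points for the CEA. For HT against NC the CEA points lie between -0.14 and 0.24, and for HT + EA against HT miR-3099 has similar values in both nuclei, 0.52 in the PVN and 0.46 in the CEA.

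Sham needling gave no call among the 9 in the CEA. For HT + SEA against HT, 0 of the 9 passed the unadjusted threshold and 4.70% of 999 miRNAs did, with log2 fold changes from 0.00 for miR-3548 to 0.28 (SE 0.22) for miR-3099. For HT + EA against HT + SEA, 0 of the 9 and 2.24% of 1026 miRNAs passed it, with log2 fold changes from -0.33 for miR-204-3p to 0.37 for miR-3548. DESeq2 also called 0 of the 9 in both. miR-3099 in CEA HT + SEA, at 54.5, 63.9 and 65.8 CPM, overlapped HT, HT + EA and NC.

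The other arms and other miRNAs predicted to bind the same mRNAs were followed in the CEA in the same way. Of the 6 other arms, 0 passed the unadjusted threshold after HT. In that comparison miR-328a-5p and miR-326-5p had 0 or 1 read per library, too few to show a change. With 4, 4 and 1 reads against 6, 3 and 15, miR-331-5p was lower in HT + EA than in HT (unadjusted p = 0.0282 by edgeR). miR-204-5p was higher in HT + SEA than in HT with a log2 fold change of 0.43 (SE 0.21, unadjusted p = 0.0422 by edgeR). Neither passed the correction for multiple tests. The study's prediction lists held 22 miRNAs for NSMF and 15 for MGLL, of which 3 and 2 are among the 9. Over all miRNAs 3.82% passed after HT, 5.28% for HT + EA against HT, 4.70% for HT + SEA against HT and 2.24% for HT + EA against HT + SEA. Of the others on the NSMF list, 1 of 16 tested passed the unadjusted threshold after HT, a predicted miRNA with no reference name that had 3, 2 and 2 reads in HT and 0 in NC. With HT + EA against HT, 1 of 19 passed, miR-320-3p, which rose from 250.9 to 354.7 CPM with a log2 fold change of 0.36 (SE 0.18, unadjusted p = 0.0489, adjusted p = 0.897 by edgeR). Of the others on the MGLL list, 0 of 11 passed in each of these comparisons, and in the comparisons with HT + SEA 0 passed on either list.

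The lists were also counted between the nuclei, where 39.9% of all miRNAs were called and 20.1% as higher in the PVN, and no test compared the lists with each other. Of 19 other miRNAs on the NSMF list, 3 were higher and 2 lower in the PVN at an adjusted p under 0.05, with a median log2 fold change of 0.28. They included miR-667-5p, which the study's text also ties to NSMF, at 47.4 CPM in the PVN and 23.3 in the CEA (log2 fold change 0.98, SE 0.09, adjusted p = 1.98e-11 by edgeR), miR-6328 with -1.41 (SE 0.30), and a pair of predicted miRNAs without a reference name, at 0.332 against 0.0225 CPM and at 0 against 0.068. The first of these had 24 of its reads in the third PVN NC library. Of 13 others on the MGLL list, 1 was higher and 5 were lower, with a median of -0.31. miR-324-3p was higher by 0.90 (SE 0.11), and miR-378a-5p, miR-24-1-5p and miR-25-3p were lower, with log2 fold changes of -1.04, -0.84 and -0.64. The median over all miRNAs was 0.03.

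Each of the 7 miRNAs with a mean of at least 10 CPM was set beside the known miRNA most like it across libraries, out of 364, by the lower of Pearson's r of log2 CPM over the 12 PVN and over the 12 CEA libraries. miR-3099 was closest to miR-379-3p (r = 0.76 in the PVN and 0.89 in the CEA), and so was miR-92b-3p (0.87 and 0.80). miR-328a-3p was closest to miR-191a-5p (0.88 and 0.92), miR-326-3p to miR-154-5p (0.81 and 0.87), miR-331-3p to miR-384-3p (0.83 and 0.86) and miR-1224 to miR-134-5p (0.76 and 0.66). miR-204-3p was closest to miR-204-5p of its own hairpin (0.57 and 0.81). These correlations describe libraries that share their depth and composition, which was not tested apart.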

How the data were processed

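The authors deposited whole-number read counts per miRNA for 24 libraries, without normalization. Reads came from NEBNext small RNA libraries. The study's methods name mRatBN7.2 as the genome, while the submitters' processing notes list GRCh38 and hg38 with HISAT2 and featureCounts, and how miRNAs, strands and shared sequences were counted is not given in the sources used here. A further 24 columns of normalized values, whose names match no sample, were not used. The 9 miRNAs, the gene lists and the comparisons were chosen with earlier results of these data known.

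Counts were fitted with edgeR 4.0.16 (limma 3.58.1, R 4.3.3) by glmQLFit and glmQLFTest with TMM scaling, over miRNAs with at least 1 count, and all 9 passed this filter in every comparison. CPM were counts divided by library totals. Standard errors are the log2 fold change over the square root of F. Correlations used log2 CPM after adding 0.5 to each count. The fits were tested on simulated counts. The alternatives were DESeq2 1.42.0, other scalings and filters, all 4 groups in the fit, robust spread, the replicate block, an adjusted threshold and leaving out each library. The miRNAs named are the 9, the other arms, those of the same seed, up to 4 called miRNAs per prediction list and comparison, and the most alike miRNA. The miR-200 family was added after its values were seen. Tables and figures used Python 3.11.15, pandas 2.3.3, numpy 2.4.6, scipy 1.17.1 and matplotlib 3.10.9.

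Replicate numbers are shared by all groups. The deviations of same-numbered libraries from their group means correlated above 0.1 in every pair for HT against NC in the CEA (r from 0.216 to 0.512 over 366 miRNAs), for HT + EA against HT in the PVN and between the nuclei in NC, HT + EA and HT + SEA, which is 5 of 12 pairings examined. The labels do not say what a number stands for. In the fit of all 24 libraries the block took each number as the same across treatments. A pairing of PVN and CEA libraries within each treatment was not fitted there.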

Additional observations from a re-analysis of the deposited data

Results flagged for a closer look

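With 3 libraries per group, outlying samples were described above and not tested for. Opposite changes in the 2 nuclei were looked for in 36 comparisons of the 9 miRNAs, and in 0 of them did all libraries move one way in the PVN and the other way in the CEA. The share over all miRNAs is not given here, and the PVN contrasts include those used to choose the 9. The count is therefore a description only.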

How the results depend on the processing

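The number of the 9 called between the nuclei stayed at 6 to 8 over all libraries and 3 to 5 in the HT + SEA libraries when 1 library was left out. For HT + EA against HT in the CEA it was 1, and 0 at an adjusted p under 0.05 or with the replicate number as a block (miR-3099, log2 fold change 0.456, unadjusted p = 0.0526 by edgeR), and 0 to 1 without 1 library. In that comparison same-numbered libraries did not all deviate together (r from -0.246 to 0.114). So few libraries cannot show whether a shared number stands for a shared animal or batch. For HT against NC in the CEA it was 0, and 0 to 1 without 1 library. The block changed 1 other call, that of miR-92b-3p between the HT + SEA libraries.

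Signs that changed belonged to values that did not pass the test. With library totals, miR-326-3p in CEA HT + EA against HT was 0.04 in place of -0.08. Leaving out 1 library gave, for CEA HT against NC, ranges of -0.21 to 0.128 for miR-1224, -0.096 to 0.109 for miR-328a-3p, -0.522 to 0.476 for miR-3548, -0.105 to 0.022 for miR-92b-3p and -0.257 to 0.015 for miR-331-3p. For CEA HT + EA against HT the ranges were -0.209 to 0.756 for miR-3548, -0.088 to 0.238 for miR-331-3p and -0.237 to 0.067 for miR-326-3p. Between the nuclei they were -0.018 to 0.136 for miR-3084a-3p, and -0.075 to 0.33 for miR-204-3p in the HT + SEA libraries. In the sham comparisons of the CEA, 5 and 4 of the 9 changed sign under some alternative. The cause was not tested.

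Over all miRNAs, calls in the CEA fell with DESeq2 and with filterByExpr: from 38 to 7 and 7 (HT against NC), from 53 to 26 and 22 (HT + EA against HT), from 47 to 21 and 11 (HT + SEA against HT) and from 23 to 8 and 9 (HT + EA against HT + SEA). At an adjusted p under 0.05 they were 2, 1, 4 and 0. The block gave 31 for HT + SEA against HT. Without 1 library the counts ranged from 18 to 66, 25 to 70, 17 to 58 and 15 to 37, and from 135 to 257 for the nuclei in HT + SEA, where 243 were called. filterByExpr dropped miR-3548 from some fits, which then gave no value. In the CEA fit of HT with NC, edgeR gave miRNAs of like abundance the same spread. Counts of 1 to 50 limit what miR-3548 and miR-3084a-3p can show.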

Other observations

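miR-32-5p, a rarer miRNA with the seed of miR-92b-3p, had lower mean levels in HT + EA than in HT or HT + SEA in both nuclei, with ranges apart in the PVN and overlapping in the CEA. In the PVN it was at 42.5, 39.0 and 47.1 CPM in HT + EA, below the HT + SEA libraries at 60.3, 61.3 and 52.7 and the HT libraries at 51.8, 62.6 and 76.1. In the CEA it was at 64.5, 59.8 and 48.3 CPM in HT + EA, which overlapped HT + SEA at 71.3, 61.2 and 103.4 and HT at 35.0, 98.6 and 89.2. Its log2 fold change of HT + EA against HT + SEA in the CEA was -0.48 (SE 0.19, unadjusted p = 0.0141, adjusted p = 0.997 by edgeR), and against HT it was -0.47 (SE 0.23, unadjusted p = 0.0486, adjusted p = 0.897). Neither CEA value passed the correction. In the PVN its log2 fold change of HT + EA against HT was -0.52 (SE 0.15, unadjusted p = 0.00201, adjusted p = 0.104 by edgeR). miR-92b-3p, with the same seed, had 0.04 and 0.25 in the 2 CEA comparisons, and whether they differ was not tested. miR-32-5p was picked out after its values were seen.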
